A study of Daphnia magna with 12 samples.

Results

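The comparison described here sets the dissolved zinc salt ZnCl2 against unexposed animals (blank) in Daphnia magna, a freshwater crustacean. It takes the 4 arrays titled ZnCl2 and the 4 titled blank, 8 of the 12 arrays used here, and covers all 4318 probes of the deposited table. Both groups were whole daphnids held for 96 h in ISO test medium and fed 2 green algae, and the zinc group received the salt at its EC10, the concentration at which a small share of animals becomes immobile. Medium and salt were renewed after 48 h. Each replicate was the RNA of 40 pooled daphnids, so a value is the average of a pool of whole bodies and does not separate tissues. The remaining 4 arrays, of ZnO nanoparticles, entered the statistical fit to help estimate the spread. Fewer cells of a type and less RNA per cell cannot be told apart in such extracts.

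Zinc is an essential trace metal, a structural or catalytic part of many enzymes and of zinc finger proteins, and it is toxic in excess. In animals from insects to mammals, a surplus of free zinc is sensed by the transcription factor MTF-1, which turns on metallothioneins, small cysteine-rich proteins that bind metal, and transporters that export zinc. In water fleas, high waterborne zinc is also known to disturb calcium balance. The probes carry array identifiers only, and 0 of the 4318 matched a gene or accession among the 28335 genes of the Daphnia magna RefSeq annotation (assembly ASM2063170v1.1). Which of them report such genes was therefore not determined, and no probe sequence is given. Every DM number occurs once, so each probe stands alone, with no second probe for the same number.

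A value is the log2 ratio of the exposure sample over a zinc reference on the same 2-colour Agilent array, as deposited. That reference was mixed in equal parts from the blank, ZnCl2 and ZnO samples. A ratio of 0 is the level of the mixture, and differences between groups do not depend on it. Replicates 1 and 2 of each group carried the sample in the dye Cy3 and replicates 3 and 4 in Cy5. A dye term per probe was therefore part of the fit (limma, two-sided, Benjamini-Hochberg adjusted over all probes, threshold 0.05). Over the 8 arrays, column medians lay between -0.05 and 0.02. Column SDs were 0.32 to 0.33 on ZnCl2 replicates 1, 3 and 4, 0.62 on ZnCl2 replicate 2 and 0.38 to 0.50 on the blanks.

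ZnCl2 changed 389 probes against the blank (9.01% of those measured), of which 288 rose (6.67%) and 101 fell (2.34%). Over all probes 50.1% had a higher mean with ZnCl2, and the median change was 0.00. Column medians near 0 on every array favour such a balance, so nothing is read from it. Among the probes past the threshold, 74.0% were rises. The size of this excess depended on how arrays were scaled. With arrays centred on their median 253 rose and 121 fell. With scale normalization between arrays it was 272 and 102, and with quantile normalization 233 and 122. At an unadjusted limma p under 0.05 there were 979 probes, or 22.7%, where 215.9 would be expected with no difference. Among the 389, the excess of rises grew with size. Below 1.5-fold 120 rose and 57 fell, and between 1.5-fold and 2-fold 105 rose and 32 fell. Between 2-fold and 4-fold 43 rose and 12 fell, and at 4-fold or more 20 rose (0.463% of all probes) and 0 fell. Over all probes, passing or not, 1901 were higher and 1908 lower below 1.5-fold, and 171 and 113 between 1.5-fold and 2-fold. Between 2-fold and 4-fold 69 were higher and 127 lower, and between 4-fold and 8-fold 15 and 7. At 8-fold or more 7 were higher and 0 lower. The steady trend is thus one of the probes that passed. The smallest change past the threshold was a rise of 0.26 on the log2 scale.

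**Figure D1:**
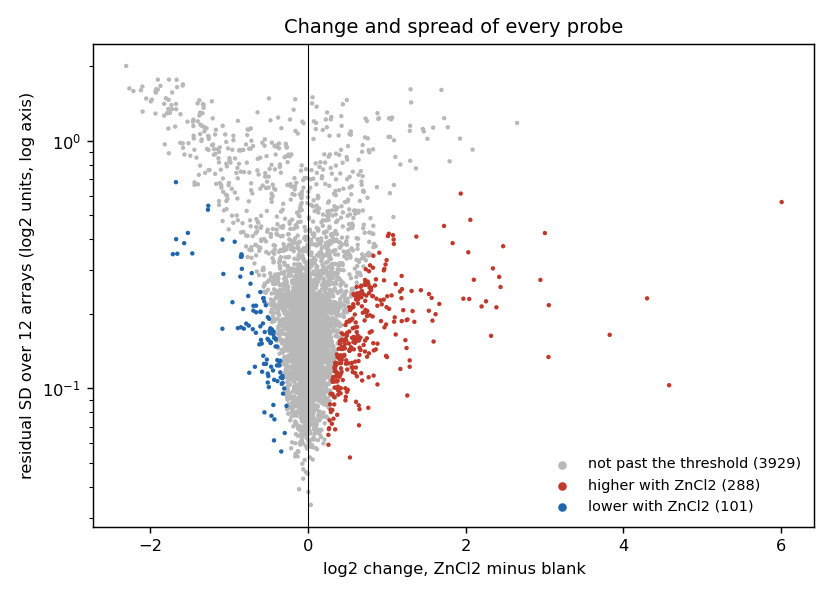
Each point is 1 of the 4318 probes, with the log2 change of ZnCl2 against blank on the horizontal axis and the residual SD over the 12 arrays on a logarithmic vertical axis. The 288 rises (red) reach 6.01 with residual SDs of at most 0.68 among all probes past the threshold (red and blue), while many grey points beyond -1 have residual SDs near or above 1.06.

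Of 225 probes whose mean changed at least 2-fold, 91 were higher and 134 lower with ZnCl2. Past the threshold were 63 of the 91 and 12 of the 134. The median residual SD was 0.27 over the 91 higher probes and 1.01 over the 134 lower ones, passing or not, against 0.17 over all probes. The difference between 0.27 and 1.01 was not tested. The 150 that did not pass comprised 28 higher and 122 lower probes with a median residual SD of 1.06, against 0.24 for the 75 that passed, a gap that the threshold itself favours. In the plot of change against spread the 122 form the upper left wing.

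The strongest response was that of DM02665P1. Its ratio was -5.69, -5.19, -5.43 and -4.43 in blank replicates 1 to 4, and 0.96, 0.47, 0.85 and 1.01 in ZnCl2 replicates 1 to 4. All blanks lay far below the mixture and all salt arrays above it. The rise was 64.4-fold (95% interval 37.1 to 112, limma adjusted p = 5e-06). On a linear scale, the blank held 0.92% of the sum of the mean ratios of the 3 groups. With a trended, robust variance prior the limma adjusted p was 0.121; in each of the other 23 settings the call held. Signal over background is not known here, so a fold from so low a blank depends on how background was handled.

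DM11283P1 was the most uniform of the strong rises. The blanks read -3.83, -4.02, -4.06 and -3.97, and the salt arrays 0.79, 0.69, 0.45 and 0.51. The groups were more than 4 log2 units apart at their nearest arrays. The rise was 23.9-fold (95% interval 21.1 to 27.2, limma adjusted p = 2.3e-10), the lowest p of all probes. The blank share of the summed linear ratios was 2.04%.

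A further 5 probes rose at least 8-fold. DM08568P3 read -3.03, -3.68, -3.79 and -3.77 in the blanks and 0.64, 0.94, 0.48 and 0.88 with ZnCl2, a rise of 19.7-fold (log2 change 4.30 ± 0.15 SE, limma adjusted p = 5.8e-08). DM07245P2 read -3.13, -3.41, -3.07 and -3.03 in the blanks and 0.49, 0.55, 0.76 and 0.87 with the salt, a rise of 14.2-fold (log2 change 3.83 ± 0.12 SE, limma adjusted p = 2.1e-08). In both, each group kept within a range of under 1 log2 unit, and blank replicate 1 was the highest blank of DM08568P3. DM10766P2 rose from -2.37 ± 0.22 (SD, n = 4) to 0.69 ± 0.08, or 8.31-fold, and DM08742P3 from -2.45 ± 0.14 to 0.60 ± 0.13, or 8.29-fold. DM01268P2 rose 8.03-fold, from -2.14 ± 0.21 to 0.87 ± 0.36. Its salt arrays read 1.13, 1.09, 0.35 and 0.89, so replicate 3 was lowest.

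**Figure D2:**
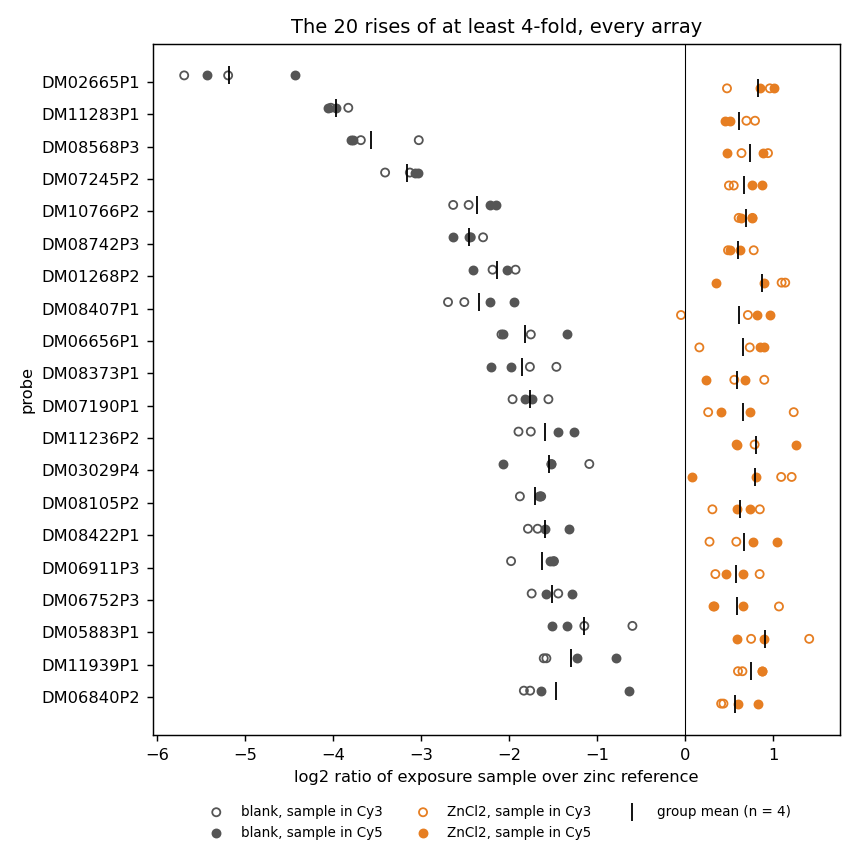
Log2 ratios of the 20 probes that rose at least 4-fold, 1 row per probe, with blank arrays in grey and ZnCl2 arrays in orange; open circles mark samples labelled with Cy3, filled circles Cy5, and black ticks the mean of 4 arrays. Blank means run from -5.19 to -1.15, while all ZnCl2 means lie between 0.56 and 0.91.

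Across the 20 rises of at least 4-fold, the spread of fold changes lay in the blank ratios. Their mean ratios with ZnCl2 lay between 0.56 and 0.91 (median 0.66), whereas in the blanks they ranged from -5.19 to -1.15. The reference holds the zinc samples itself, which bounds how far a zinc ratio can rise above it. Differences in fold change must then show mainly in the blank ratios, so no difference in unexposed level is read from them. The remaining 13 of the 20 rose 4.09-fold to 7.72-fold. DM08407P1 was at the upper end, at -2.34 ± 0.33 in the blanks and 0.61 ± 0.45 with ZnCl2 (SD, n = 4), where replicate 1 read -0.05 and the others 0.71 to 0.96. DM06656P1 had the same low array, at 0.16 on ZnCl2 replicate 1 against 0.73 to 0.90 on the others, and rose 5.56-fold. Low values were not tied to 1 array: ZnCl2 replicate 3 was lowest on DM03029P4, at 0.08 against 0.81 to 1.21. All 20 kept their call without any 1 of the 12 arrays, and the plot of the 20 rises shows blank and salt ratios apart on each row, with the dye effect left in.

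DM06840P2, the smallest of the 20 rises, had the widest blanks among them (SD 0.56, n = 4). It read -1.76, -1.83, -1.63 and -0.65 in the blanks, so replicate 4 stood above the rest, and 0.43, 0.41, 0.59 and 0.83 with ZnCl2. It rose 4.09-fold (95% interval 2.88 to 5.82, limma adjusted p = 0.00036). DM05883P1 rose 4.17-fold (2.61 to 6.67, limma adjusted p = 0.0023), to the highest salt mean of the 20, 0.91 ± 0.35.

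Below 4-fold, DM07356P1 rose 3.92-fold, DM07234P2 3.83-fold, DM06797P1 3.57-fold, DM09835P3 3.31-fold and DM12758P3 3.17-fold. The blanks of DM06797P1 were nearly identical, at -1.48, -1.51, -1.48 and -1.46. With ZnCl2 it read 0.17, 1.23, -0.07 and 0.08, so the response of replicate 2 stood above that of the other pools. DM12758P3 also had narrow blanks (-1.10 ± 0.05) and a wider salt group (0.56 ± 0.33). DM07234P2 was the least even. It read 0.58 and 1.10 on the Cy3 salt arrays and 0.19 and -0.65 on the Cy5 ones, and its change was 2.75 in Cy3 and 1.12 in Cy5.

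The 43 rises of 2-fold to 4-fold had a median change of 1.25, from a median blank mean of -0.88 to 0.37 with ZnCl2. The 105 rises of 1.5-fold to 2-fold had a median change of 0.73 and the 120 smaller ones 0.42. The median residual SD was 0.12 among the smallest rises, 0.20 in the next class and 0.24 among rises of 4-fold or more, an order that the threshold sets, since a small change passes only where the spread is small.

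Among the probes past the threshold, falls were fewer and smaller than rises. The 12 falls of at least 2-fold (0.278% of all probes) went from blank means of 0.50 to 0.89 to salt means of -1.10 to -0.32. The deepest was that of DM07982P1, at 0.84, 0.71, 0.48 and 0.41 in the blanks and -0.64, -0.91, -0.79 and -2.07 with ZnCl2. The groups lay apart, with ZnCl2 replicate 4 far below the other salt arrays. The fall was 3.28-fold (95% interval 2.32 to 4.63, limma adjusted p = 0.0010).

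DM02255P1 and DM08004P3 had the same shape. DM02255P1 read 0.98, 0.82, 0.04 and 0.40 in the blanks and -0.68, -0.93, -0.57 and -1.87 with ZnCl2, a fall of 2.97-fold (2.03 to 4.35, limma adjusted p = 0.0031). DM08004P3 read 0.96, 0.50, 0.03 and 0.51 in the blanks and -0.68, -1.01, -0.47 and -1.93 with the salt, a fall of 2.88-fold (1.89 to 4.36, limma adjusted p = 0.0060). In each of these 3 probes ZnCl2 replicate 4 was the lowest array, and blank replicate 3 was among the lowest 2 blanks. With the dye term removed, their profiles over the 12 arrays correlated at 0.97 to 0.98. DM01556P2 (2.77-fold lower) correlated with them at 0.96. These are descriptions of probes that share the arrays and the contrast for which they were named.

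A second profile was carried by DM05996P3, DM12298P2 and DM12344P3. DM05996P3 read 0.74, 0.72, 0.93 and 0.93 in the blanks and -1.18, -0.99, -0.91 and -0.22 with ZnCl2, a fall of 3.16-fold (2.23 to 4.46, limma adjusted p = 0.0013). DM12298P2 read 0.85, 0.81, 0.99 and 0.91 in the blanks and -1.25, -0.62, -1.01 and -0.25 with the salt, a fall of 3.19-fold (2.15 to 4.73, limma adjusted p = 0.0027). Here ZnCl2 replicate 4 was the highest salt array, the reverse of the first profile, and the blanks were tight. DM12344P3 fell 2.10-fold, from 0.65 ± 0.07 to -0.43 ± 0.38 (SD, n = 4), with ZnCl2 replicate 4 again highest, at 0.11. The 3 profiles correlated at 0.98 to 0.99 over the 12 arrays. With the probes of the first profile, DM01556P2 included, they correlated at 0.54 to 0.75. DM12598P3 correlated with the first profile at 0.86 to 0.91 and with the second at 0.84 to 0.93. DM08122P1 correlated with the second at 0.89 to 0.92. The 2 profiles were thus not fully distinct. Both profiles were singled out after their values were seen.

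**Figure D3:**
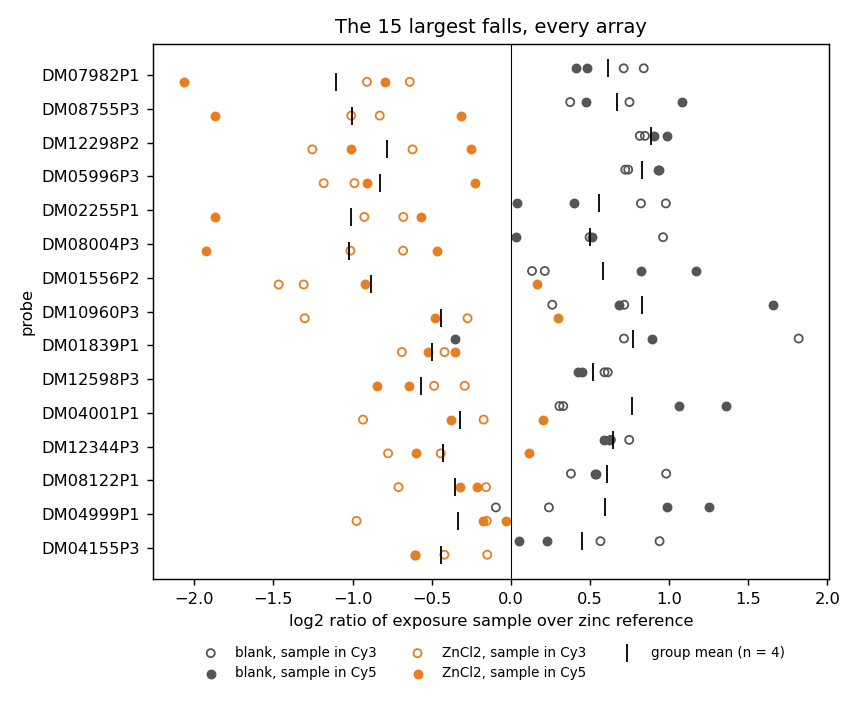
Log2 ratios of the 15 largest falls, drawn as for the rises. The salt arrays of DM07982P1, DM02255P1 and DM08004P3 include 1 filled circle near -2, ZnCl2 replicate 4, while that array is the highest orange point of DM12298P2, DM05996P3 and DM12344P3; blank and salt points touch or cross in DM01556P2, DM10960P3, DM01839P1 and DM04999P1.

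The steadiest falls were moderate. DM12598P3, which had the lowest p of all falls, went from 0.52 ± 0.10 to -0.57 ± 0.24 (SD, n = 4), or 2.12-fold lower (95% interval 1.76 to 2.56, limma adjusted p = 0.00035). DM08720P2 read 0.31, 0.19, 0.19 and 0.27 in the blanks and -0.25, -0.37, -0.34 and -0.28 with ZnCl2. The SD was 0.06 in each group, and the fall of 1.47-fold (1.31 to 1.64) had a limma adjusted p of 0.0010. DM00469P1 fell 1.68-fold and DM04155P3 1.85-fold, and each kept its call without any 1 array. DM08122P1 fell 1.94-fold, from 0.61 ± 0.26 to -0.35 ± 0.25, and also kept its call.

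Of the named falls, 5 had calls that were lost when any 1 of several arrays was left out. DM08755P3 was listed at 3.19-fold lower (limma adjusted p = 0.038), with salt values of -1.01, -0.83, -1.87 and -0.32. It passed in 4 of the 12 fits that leave out 1 array: those without ZnCl2 replicate 4 or without ZnO replicate 2, 3 or 4. DM01839P1 (2.40-fold, limma adjusted p = 0.048) passed in 1 of the 12, the fit without blank replicate 3. That blank read -0.35, the same as ZnCl2 replicate 3, while blank replicate 2 read 1.82. DM04999P1 (1.90-fold) passed in 3 of 12, and lost its call without blank replicates 2, 3 or 4, ZnCl2 replicates 2, 3 or 4, or ZnO replicates 1, 2 or 3. DM10960P3 (2.41-fold) passed in 5, and lost it without blank replicates 1, 3 or 4, ZnCl2 replicates 2 or 3, or ZnO replicates 1 or 3. DM04001P1 (2.12-fold) passed in 7, and lost it without blank replicates 1, 3 or 4 or ZnCl2 replicates 2 or 3.

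The change was measured separately in each dye orientation, with 2 blanks and 2 salt pools in each. Over the 288 rises the median change was 0.66 in the Cy3 arrays and 0.62 in the Cy5 arrays, and over the 101 falls it was -0.55 and -0.58. All 389 had the same sign in both, which their selection on the mean of both favours. Over all probes 63.2% did. The difference of the change between dyes was tested in limma as an interaction, and 0 probes passed (lowest adjusted p 0.79). At an unadjusted p under 0.05 there were 217, close to the 215.9 expected, with 14 of them among the 389. The median half-width of the 95% interval of this difference was 0.53 on the log2 scale, before adjustment over probes. Smaller differences between dyes were thus not detectable for a typical probe, and larger ones could also be missed. DM07234P2 differed by -1.63 between the dyes and did not pass (limma interaction adjusted p = 0.89). Without blank replicate 1, which leaves blank replicate 2 as the single Cy3 blank, 13 probes passed the interaction test, and without blank replicate 4, 1 did.

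**Figure D4:**
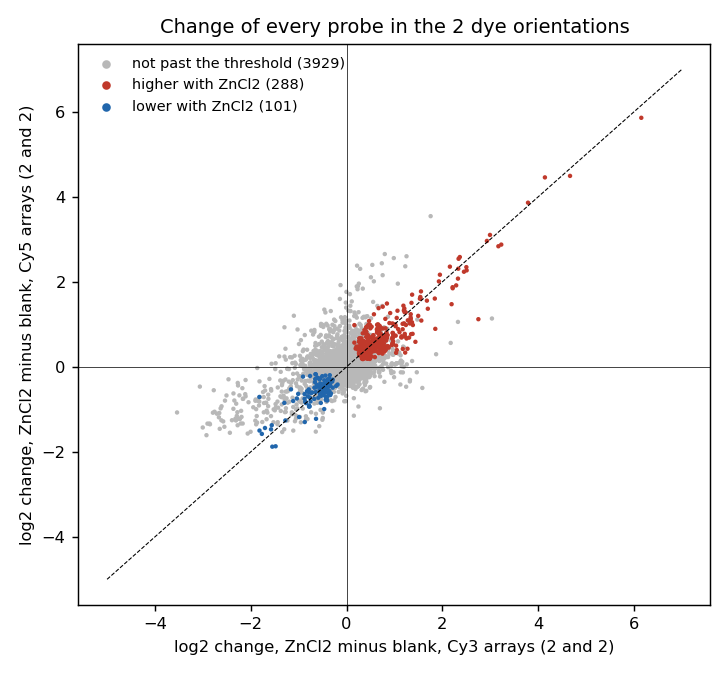
Log2 change of ZnCl2 against blank in the Cy3 arrays (horizontal) and in the Cy5 arrays (vertical) for every probe, each a difference of means of 2 arrays; the dashed line marks equal change. Red and blue points lie along the line, and a grey cloud at Cy3 changes below -2 lies above it, with smaller falls in Cy5.

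The dye term itself passed its own limma threshold for 1586 probes, with a median absolute difference of 0.22 between the orientations. It exceeded the salt effect for 39 of the 389 probes. With the dye term removed, the salt and blank arrays did not overlap for 385 of the 389, against 19.6% of all probes. The 389 were chosen by the same fit on the same arrays, which favours this, so nothing is read from the contrast. The gap between the nearest arrays of the groups was at least 2-fold for 31 rises and 3 falls.

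How many probes passed depended on single arrays. At 1.5-fold or more, rises held better than falls, while below 1.5-fold falls were kept slightly more often. Without 1 of the 12 arrays the count ranged from 234 (without ZnCl2 replicate 3, 51 falls) to 432 (without ZnO replicate 4, 121 falls), and it was 239 (54 falls) without blank replicate 1. A set of 201 probes (4.65%) passed in the same direction in every one of the 12 fits, 157 rises and 44 falls. Their median rise was 0.82 and their median fall -0.64. The share kept grew with size: 27.5% of rises below 1.5-fold, 62.9% of those from 1.5-fold to 2-fold, 88.4% of those from 2-fold to 4-fold, and all 20 of the largest. Among falls it was 31.6%, 56.2% and, at 2-fold or more, 66.7% (8 of 12).

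Both groups held 1 array that departed from the others on a large set of probes. ZnCl2 replicate 2 lay more than 2-fold below the other 3 salt arrays on 132 probes, once the dye term was removed, against 2 to 5 probes for each of the others. Over these 132, the median ratio was -2.51 on ZnCl2 replicate 2 and 0.12, -0.27 and 0.27 on ZnCl2 replicates 1, 3 and 4. The blanks had medians of 0.26 to 0.84. DM06709P1, the largest negative difference that did not pass, belonged here: it read 0.61, 0.13, 0.33 and 1.79 in the blanks and -0.89, -5.45, -0.64 and 0.62 with ZnCl2 (mean difference -2.31, limma adjusted p = 0.31). DM02191P2, DM06691P2 and DM07658P2 had -5.18, -5.03 and -5.24 on that array and between -0.74 and 0.48 on the other salt arrays. Of the 132, 0 passed the limma threshold, against 9.01% of all probes, and 14 (10.6%) had an unadjusted p under 0.05, against 22.7%. Choosing probes by 1 deviating array raises their residual SD, so nothing is read from these shares. Without ZnCl2 replicate 2, 3 of the 132 passed (2.27%, against 6.44% of all probes), all 3 higher with ZnCl2. Leaving that array out, the median change of the 132 went from -1.22 to -0.51, as it must when the lowest array is dropped. Of these 132, 72 (54.5%) were also more than 2-fold low on ZnO replicate 1 or 4, which is 35.6% of the 202 probes low there. Over all probes those 202 make up 4.68%.

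Blank replicate 2 lay more than 2-fold above the other blanks on 145 probes, against 2 or 3 for each other blank. Their median ratio was 1.58 on that array and -0.54, -1.06 and -0.55 on blank replicates 1, 3 and 4, while the salt arrays had medians of -0.22 to 0.42. DM07986P1 was one of these probes. It read -2.55, 0.20, -3.53 and -2.39 in the blanks and 0.70, 0.46, 0.63 and 0.55 with ZnCl2, so that 3 blanks were far below the salt arrays and 1 was close to them. Its mean difference of 2.65 had a limma adjusted p of 0.052. Without blank replicate 2 the difference was 3.47 (SE 0.51, limma adjusted p = 0.0037). DM01138P4 read 0.72 on blank replicate 2 and -2.26 to -1.81 on the other blanks, and DM04462P2 read 1.19 there and -2.68 to -1.56 on the others; both were named after their values were seen. Of the 145 probes 1 passed with all arrays (0.69%, against 9.01% of all probes). Without blank replicate 2, 30 passed (20.7%, against 7.27% of all probes), all 30 higher with ZnCl2. Dropping the highest blank raises each of these differences by construction. Leaving out the 4 arrays that stood apart in this way (blank replicate 2, ZnCl2 replicate 2, ZnO replicates 1 and 4) gave 285 probes, 218 rises and 67 falls, of which 200 were among the 389.

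**Figure D5:**
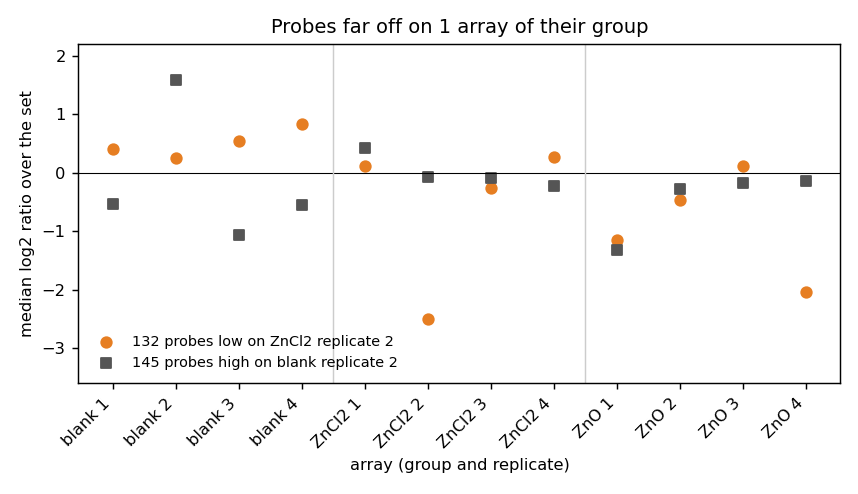
Median log2 ratio on each of the 12 arrays over the 132 probes that were more than 2-fold low on ZnCl2 replicate 2 (orange circles) and the 145 that were more than 2-fold high on blank replicate 2 (grey squares). The 132 probes are near or above 0 on the blanks, at -2.51 on ZnCl2 replicate 2 and at -2.04 on ZnO replicate 4; the 145 are at 1.58 on blank replicate 2 and below 0 on the other blanks.

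For most probes the data limited any effect of the salt to a small size. The 95% interval of the change lay within 1.5-fold of the blank in either direction for 2956 probes (68.5%) and within 2-fold for 3679 (85.2%). Among the 2956, 62 nevertheless passed the threshold, as small changes measured precisely. For 484 probes the interval reached beyond 2-fold without the probe passing, so a change of that size was not excluded. At the other end, 38 rises and 4 falls had an interval entirely beyond 2-fold.

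Because the reference was mixed from equal aliquots of the groups, undistorted linear ratios of the 3 groups should sum to about 3 for each probe, slightly less where replicates scatter. Computed from the group means, the sum had a median of 2.98 over all probes and 2.99 over the 389, with 5th and 95th percentiles of 2.84 and 3.21 among the 389. For the 20 rises of at least 4-fold it ranged from 2.90 to 3.40. The highest, 3.40, was that of DM03029P4, and DM02665P1 summed to 2.98.

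ZnO nanoparticles, compared with the same 4 blanks, had 384 probes past the threshold (8.89%). Because both comparisons share the blanks, their values are set side by side and no more. Over the 20 largest rises the median change was 2.43 with ZnCl2 and 2.01 with ZnO, and over the 63 of at least 2-fold it was 1.43 and 1.26. Over the 101 falls the medians were -0.56 and -0.52. The probes were chosen for their change with the salt, which favours the larger value there. Tested directly, 0 probes passed the threshold between ZnCl2 and ZnO in limma (lowest adjusted p 0.35). At an unadjusted limma p under 0.05 there were 246, where 215.9 would be expected with no difference. Of the 20 largest rises, 19 had the higher mean with ZnCl2, and 14 had an unadjusted p under 0.05. Of the 12 falls of at least 2-fold, 7 had the lower mean with ZnCl2. The choice of probes by the salt favours these counts. For DM07982P1 and DM02255P1, falls of the first profile, the salt means were the lower ones. DM07982P1 had a mean of -1.10 ± 0.65 with ZnCl2 and -0.25 ± 0.20 with ZnO (SD, n = 4), a difference of -0.85 (95% interval -1.35 to -0.36) that did not pass the threshold (limma adjusted p = 0.71). DM02255P1 had means of -1.01 ± 0.59 and -0.14 ± 0.35 (limma adjusted p = 0.79). In the second profile DM05996P3 had means of -0.83 ± 0.42 and -0.80 ± 0.58, a difference of -0.03 (95% interval -0.53 to 0.47).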

How the data were processed

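The deposited table holds log2 ratios of the exposure sample over a common zinc reference, 1 per probe and array, which the authors made from 2-colour Agilent arrays after labelling of 100 ng RNA, per the labels. limma is named, with no version, in the submitters' processing notes. How background was corrected, how arrays were normalized and how probes were filtered is not given in the labels or processing notes; intensities were not used. The table does not state its log base or direction. They were taken as log2 of exposure over reference. The changes in both dye orientations correlated at 0.66 across probes, which shows only that both orientations share 1 direction. Linear ratios of the groups summed to a median of 2.98 where an equal mixture gives 3. Most ratios lie near 0, so this median says little about base or direction. For DM02665P1, with a blank mean of -5.19, the sum was also 2.98, which reversed ratios could not give.

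Ratios were fitted with lmFit and eBayes of limma 3.58.1 under R 4.3.3: 12 arrays, a mean per group, a dye term per probe, 8 residual degrees of freedom. Intervals are 95% intervals from that fit. Precision is limited by the number of arrays, with a median half-width of 0.26. Replicates are separate pools, and no label says that the cultures were separate; p-values thus cover the spread of these pools alone, possibly technical. The fit was tested on simulated data.

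Named probes are the 25 largest rises and 15 largest falls whose groups do not overlap once the dye term is removed, the 5 lowest p in each direction, and the 5 largest changes not past the threshold. Members, settings and rules were chosen with earlier results of these data known. No DM number had more than 1 probe, so averaging by number could not be applied; gene lists could not be, as 0 probes matched the RefSeq table. Alternatives changed the dye term, arrays, scaling, variance prior, filter and threshold.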

Additional observations from a re-analysis of the deposited data

Results flagged for a closer look

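In 8 of 94 groups of 4 values examined (the blank and the ZnCl2 arrays of each named probe), 1 array lay far from the other 3 for the range of the group. For 4 like draws about 1 in 20, or 4.7, would by chance. These values keep the dye effect, and the probes were chosen on the same arrays, so the 8 are not judged against that rate. Blank replicate 2 was the low array on 3 rising probes: DM08105P2 at -1.88 against -1.67 to -1.64, DM06911P3 at -1.98 against -1.54 to -1.49, and DM07234P2 at -2.47 against -1.43 to -1.28. Blank replicate 1 was high on DM08568P3, at -3.03 against -3.79 to -3.68. Blank replicate 4 was high on DM06840P2, at -0.65 against -1.83 to -1.63. ZnCl2 replicate 2 was the low array on 3 probes: DM04999P1 at -0.97 against -0.18 to -0.03, DM02191P2 at -5.18 against -0.59 to -0.20, and DM07658P2 at -5.24 against -0.74 to 0.01. DM04999P1 lost its call without ZnCl2 replicate 2, and the 5 rises kept theirs without the array in question. The other pair had no call with that array or without it.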

How the results depend on the processing

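The count of 389 stayed within 1.5 times in 19 of 27 alternatives. It was 191 with no dye term, 88 with the Cy3 orientation alone and 64 with the Cy5 orientation alone (2 against 2 in each), 588 at an adjusted p under 0.1, 172 under 0.01 and 212 at 1.5-fold or more, and single left-out arrays gave 234 to 432. No direction was reversed in 1122 refits of the 47 named probes; 96 lost a call and 8 gained one. The 5 named changes not past the threshold account for the 8: DM07986P1 passed in 7 settings and DM02191P2 in 1. Of the 42 named probes past the threshold, 17 rises and 0 falls kept their call in all settings that could be run for them, and 31 of the 4318 probes did so over 23 settings, which include the small single-dye fits. The interaction with dye gave 0 probes in 22 of 24 settings; single left-out arrays gave 0 to 13. Array weights gave 536 probes. On at least 1 array, 2412 of the 4318 probes hold exactly the value of another probe, for a reason not given in the sources used here; the 1906 without such ties gave 296. With the replicate block in place of the dye term 285 probes passed; same-numbered ZnCl2 and blank arrays had residual correlations of -0.16 to 0.10, so the numbers were not read as pairs. Averaging by DM number was not run, as each number has 1 probe. Signal over background is not known here, which limits the folds of probes with very low blanks. The cause of these moves was not tested. Some of the settings also leave fewer arrays or probes.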
